A study of Mus musculus with 4 samples.

Results

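The genes described here are 9 genes of retinoid transport and metabolism, out of the 23282 rows of each deposited lung file: Crabp1, Crabp2, Rbp4, Rdh10, Rdh11, Aldh1a1, Aldh1a2, Stra6 and Rarb. They were picked by symbol, and the list was chosen by the measured values themselves, with differences between these 4 libraries already known. The differences given for them are therefore descriptions, without a test. The question of the study was how high-intensity treadmill exercise (E) and the presence of a tumor (T) change gene expression, and lung was one of the tissues sequenced. Lung RNA of male CDF1 mice was profiled in 4 libraries: E(-)T(-), mice with neither exercise nor tumor; E(+)T(-), exercised mice without tumor; E(-)T(+), tumor-bearing mice at rest; and E(+)T(+), tumor-bearing mice that were exercised. The tumor was given as CT26 cells, a colorectal carcinoma line of the mouse, by tail vein injection, so that a tumor-bearing lung can hold both host cells and cells of that 1 line. The labels give postnatal day 28 for all 4 groups and 10 mice for each. The methods of the study give about that age for the purchase of the mice, before the experiment, so the age at sampling is uncertain. Each group has 1 library. For muscle the study names a single representative mouse per group and calls the work on lung similar, but for lung itself the number of animals behind a library is not stated. No difference between groups therefore has a replicate check.

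Retinol, or vitamin A, travels in blood bound to the carrier retinol binding protein 4, the product of Rbp4, and can enter cells through the membrane receptor STRA6. Inside the cell, retinol dehydrogenases such as RDH10 oxidize retinol to retinal, and retinaldehyde dehydrogenases such as ALDH1A1 and ALDH1A2 oxidize retinal to retinoic acid. Retinoic acid is carried by the cellular binding proteins CRABP1 and CRABP2, is degraded by enzymes of the CYP26 family, and acts through the nuclear receptors RARA, RARB and RARG in partnership with RXR receptors. In lung, retinoic acid is known for its part in branching and in the formation of alveoli, and lung lipofibroblasts store retinyl esters.

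RARB is both a receptor for retinoic acid and one of its best known targets, and the promoter of Rarb is shown because it holds the element for which that regulation is known. Promoter windows from 250 bases before to 50 bases after an annotated start (RefSeq, GRCm38.p6, the assembly also called mm10) were matched by symbol for 7 of the 9 genes, with 13 windows in all. Crabp2 and Rdh10 had no entry. Each window was searched on both strands for the 4 hexamers AGGTCA and GGGTCA and AGTTCA and GGTTCA, the half-sites to which retinoic acid receptors bind in pairs, and for direct repeats of any of these with 1, 2 or 5 bases between them (DR1, DR2 and DR5). The windows of Rarb (chr14:16575427-16575726, minus strand), Crabp1 (chr9:54764498-54764797, plus strand) and Rbp4 (chr19:38125272-38125571, minus strand) are printed from 5′ to 3′ on the strand of the gene, with half-sites in capitals. Those of Crabp1 and Rbp4 are set beside Rarb because these genes had the largest differences above and below 0 among the 9 in E(-)T(+) relative to E(-)T(-).
Rarb: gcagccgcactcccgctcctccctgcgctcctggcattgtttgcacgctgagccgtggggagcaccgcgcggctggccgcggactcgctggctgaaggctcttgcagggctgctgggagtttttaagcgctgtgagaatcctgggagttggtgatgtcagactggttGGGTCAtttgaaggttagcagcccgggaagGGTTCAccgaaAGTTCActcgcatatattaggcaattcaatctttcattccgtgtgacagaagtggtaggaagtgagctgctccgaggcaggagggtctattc
Crabp1: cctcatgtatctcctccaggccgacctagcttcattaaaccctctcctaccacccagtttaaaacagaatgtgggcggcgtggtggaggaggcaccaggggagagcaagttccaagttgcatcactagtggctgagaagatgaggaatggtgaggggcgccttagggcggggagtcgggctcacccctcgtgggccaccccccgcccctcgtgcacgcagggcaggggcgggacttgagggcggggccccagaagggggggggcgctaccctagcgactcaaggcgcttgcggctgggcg
Rbp4: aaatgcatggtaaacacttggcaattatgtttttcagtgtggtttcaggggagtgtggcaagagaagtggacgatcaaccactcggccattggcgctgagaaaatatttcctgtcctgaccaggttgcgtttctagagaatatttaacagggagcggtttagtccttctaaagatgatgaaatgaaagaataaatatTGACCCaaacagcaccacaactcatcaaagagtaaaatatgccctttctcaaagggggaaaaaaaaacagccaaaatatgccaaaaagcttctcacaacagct

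The Rarb window held 3 half-sites, of which a pair formed a DR5 repeat, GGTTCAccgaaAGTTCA, from 53 to 37 bases before the start (chr14:16575513-16575529). A DR5 repeat of these hexamers was present in 0.0974% of the 32851 promoter windows of the same length, and Rarb was the 1 gene of the 7 with one. No DR1 or DR2 repeat was found in the 13 windows. Single half-sites are common, being present in 43.7% of all windows. Rbp4 has 2 windows in the table, of which the one printed held 1 half-site, on the strand opposite to the gene, and the other held none. The Crabp1 window held none, which says only that these letters are not in those 300 bases. These matches describe the sequence, and binding was not measured.

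The 9 genes lie on 6 chromosomes (GENCODE M21 on the same assembly). Crabp1 (chr9:54764748-54773110), Aldh1a2 (chr9:71215789-71296243) and Stra6 (chr9:58063788-58153996) share chromosome 9, all on the plus strand. Aldh1a1 (chr19:20492715-20643465) and Rbp4 (chr19:38116629-38125281) are on chromosome 19, and Rdh10 (chr1:16105774-16133734), Crabp2 (chr3:87948666-87953376), Rdh11 (chr12:79174337-79192293) and Rarb (chr14:16430839-16819156) each lie on a chromosome of their own. The libraries were read from the 3′ end of transcripts, so the last exon is where most reads are to be looked for. The last exon of Rarb, 1429 bases long, lies in full under exons of Top2b on the opposite strand, and the use of strand in the counting is not given in the sources used here. Rarb reads may therefore include reads of Top2b, which had 2454, 2449, 1961 and 1258 reads against 124, 99, 42 and 53 for Rarb. Here and from here on, 4 values in a row follow the order of the groups in the opening, that is E(-)T(-) first, then E(+)T(-), then E(-)T(+) and last E(+)T(+). No other member had its last exon under another annotated gene. Aldh1a1 has a close paralog, Aldh1a7, on the opposite strand with a gap of 49487 bases between the genes, and reads could be split between the copies.

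Depth was 9354510 to 13368005 reads assigned to genes per library, lowest in E(-)T(+). The 6 adult hemoglobin symbols took 14.3%, 14.2%, 1.43% and 31.4% of all reads, so that the tumor libraries stood apart from the others and from each other. The deposited values, log2(normalized count + 1), were scaled by the authors to a common library size. The scaling factors that these values imply, estimated here, ran from 0.7685 in E(+)T(+) to 1.1717 in E(-)T(+). Whole reads were recovered from them, and 95% counting intervals are given for levels (exact Poisson) and for ratios of reads (exact Clopper-Pearson, scaled by the effective library sizes, log2). These cover counting error alone. A library is 1 bulk sample, in which fewer cells of a type and less RNA per cell cannot be told apart. Levels are compared between genes as counts of transcript ends, which do not grow with transcript length.

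**Figure D1:**
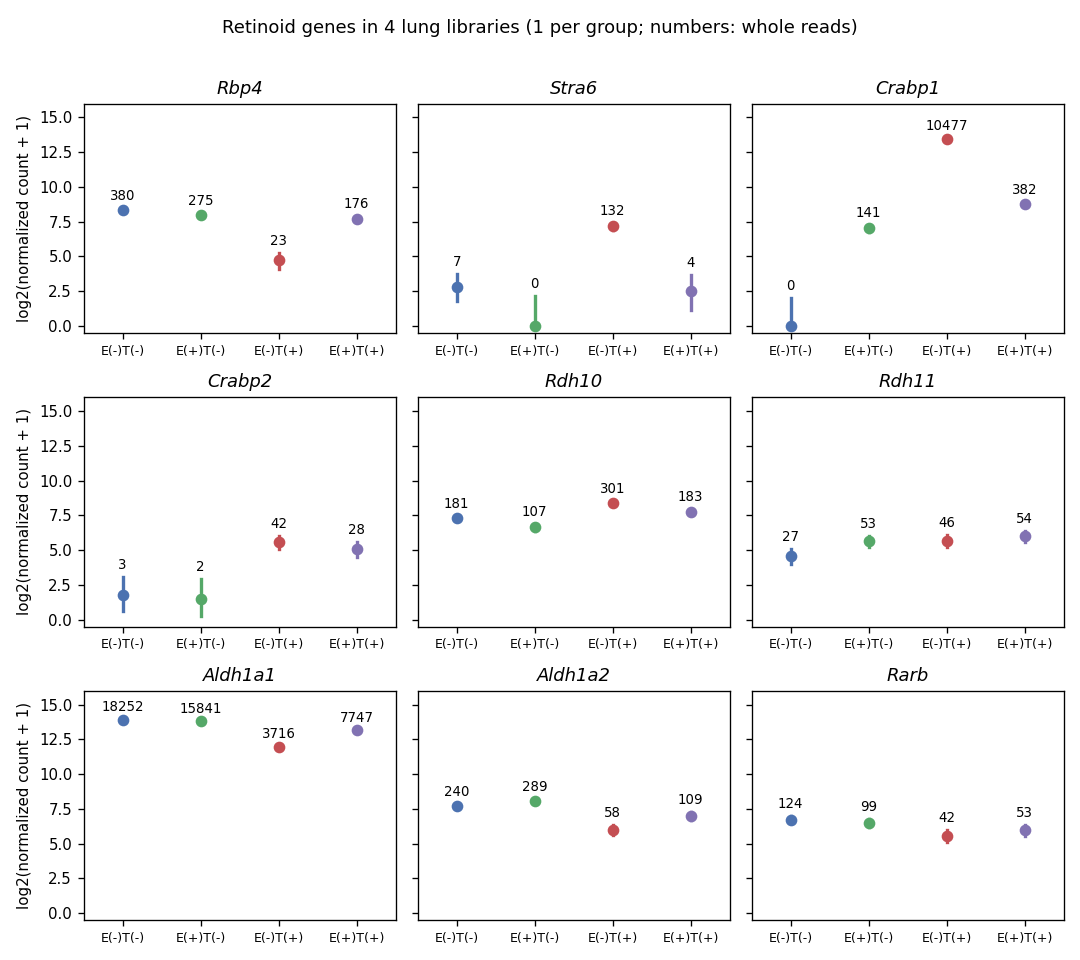
Level of each of the 9 genes, log2(normalized count + 1), in the 4 lung libraries (1 per group), with bars for the 95% counting interval and the number of whole reads above each point. Crabp1 runs from 0 to 10477 reads and is highest in E(-)T(+), where Rbp4, Aldh1a1, Aldh1a2 and Rarb are lowest.

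Rbp4, the blood carrier of retinol, stood at log2 levels of 8.34, 7.99, 4.72 and 7.69, from 380, 275, 23 and 176 reads. The resting tumor library was the low one, and the counting intervals of E(+)T(-) and E(+)T(+) overlapped. In the tumor effect without exercise (E(-)T(+) relative to E(-)T(-)), Rbp4 was lower by 3.62 on the log2 scale (interval of the read ratio -4.35 to -3.07). In the exercise effect with tumor (E(+)T(+) relative to E(-)T(+)), it was higher by 2.98 (2.40 to 3.72), and its level in E(+)T(+) was 63.7% of that in E(-)T(-). In the tumor effect with exercise (E(+)T(+) relative to E(+)T(-)), the difference was only -0.29 (-0.58 to -0.02), and in the exercise effect without tumor (E(+)T(-) relative to E(-)T(-)), it was -0.35 (-0.58 to -0.13).

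Rbp4 is best known as a product of liver and fat. The 6 hepatocyte markers summed to 43.6, 95.3, 351.8 and 662.9 normalized counts, an order that is not that of Rbp4, which stood at 323, 253, 25.3 and 206. Albumin (Alb) had 10, 27, 72 and 178 reads. Of 5 adipocyte markers past the filter, 4 were lower by 2-fold or more in E(-)T(+) than in E(-)T(-), as Rbp4 was, and Fabp4 was higher. In E(+)T(+) relative to E(-)T(+), Rbp4 and 1 of these 5, the lipid droplet gene Cidec, were higher by 2-fold or more, and the median of the 5 was -0.33. Cidec, with 572, 290, 30 and 144 reads, was higher by 2.32, whereas adiponectin (Adipoq), with 327, 113, 77 and 48, differed by -0.58, Plin1 by -0.33, Retn by -0.06 and Fabp4 by -3.73. The part of these cells in the Rbp4 values was not tested.

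Stra6, the receptor that takes up retinol from its carrier, was close to the detection limit in 3 of the 4 libraries. Its log2 levels were 2.77, 0, 7.18 and 2.54, from 7, 0, 132 and 4 reads. E(-)T(+) alone was high, at 144 normalized counts (121 to 172), and the counting intervals of the next 3 levels in order overlapped with their neighbours. Stra6 passed the filter, a mean of at least 4 normalized counts over the libraries, mostly through E(-)T(+). Its mean was 38.7, and E(-)T(-), E(+)T(-) and E(+)T(+) had 5.83, 0 and 4.81. The tumor effect at rest was 4.41 (3.52 to 5.95), the second largest difference above 0 among the 9 genes. With tumor, the exercised library was lower by 4.64 (-6.85 to -3.56). Without tumor, E(+)T(-) had no read. With that library set at a floor of 3 reads, Stra6 was 2.16-fold lower there than in E(-)T(-), and the 95% counting interval of the log2 ratio, which allows for more than 3 reads and so for a smaller difference, ended at -0.41. The 4 reads of E(+)T(+) were 1.70-fold above that floor in E(+)T(-), with an interval of the log2 ratio that started at -0.25 and so held 0. Ccdc33, which overlaps the Stra6 span on the opposite strand without sharing exon bases, had 18, 16, 14 and 15 reads.

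Crabp1, which encodes a cytosolic carrier of retinoic acid, had 0, 141, 10477 and 382 reads, or log2 levels of 0, 7.03, 13.49 and 8.81, and the counting intervals of all 4 libraries lay apart. In E(-)T(+) it ranked 95 from the top among the 15164 genes past the filter, and in E(-)T(-) it had no read. If E(-)T(-) is set at that same floor, 3 reads, the level of Crabp1 was higher by 4503-fold in E(-)T(+) and by 50.8-fold in E(+)T(-). The lower bounds of these log2 ratios, from 95% counting intervals that allow for more than 3 reads, were 11.84 and 5.35. On the deposited scale no gene past the filter had a larger difference above 0 in either of these comparisons. With tumor, exercise went with a level lower by 4.68 (-4.84 to -4.54), and E(+)T(+) stood at 3.89% of E(-)T(+). The tumor effect with exercise was 1.78 (1.503 to 2.07).

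The 141 reads of Crabp1 in E(+)T(-), a library of mice labelled as free of tumor, equalled 1.13% of its level in E(-)T(+). A set of 9 genes, formed after the values were seen, had no read in E(-)T(-) and at least 500 normalized counts in E(-)T(+). Besides Crabp1 it held, among others, Krt20, Etv4, 3110039M20Rik, Gzmd, Gzmg, Gzmf and Osr2. Their levels in E(+)T(-) were 0.642% to 2.18% of those in E(-)T(+), and in E(+)T(+) 3.89% to 28.5%. The share of Crabp1 was the lowest of the 9 in E(+)T(+), and in E(+)T(-) that of 3110039M20Rik alone was lower. What these shares have in common was not tested, and RNA of another library cannot be told apart here from expression in E(+)T(-).

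Crabp2, which hands retinoic acid to the nuclear receptor, had 3, 2, 42 and 28 reads, at log2 levels of 1.78, 1.47, 5.55 and 5.07. Both tumor libraries were high and both tumor-free libraries were at or under 3 reads, so that no fold is given between the latter. The log2 read ratio of E(-)T(+) to E(-)T(-) was 4.17 (2.53 to 6.51), and that of E(+)T(+) to E(+)T(-) was 4.16 (2.17 to 7.27). Unlike Crabp1 and Stra6, Crabp2 kept 71.1% of its E(-)T(+) level in E(+)T(+), a difference of -0.48 with an interval that held 0 (-1.24 to 0.23). Under library totals alone that difference was -1.07, past the 2-fold limit. The 2 carriers of retinoic acid therefore had the same pair of libraries on top but were unlike in the exercised one: Crabp1 differed there by -4.68 and Crabp2 by -0.48, with intervals that lay apart.

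Rdh10, the main enzyme of the first oxidation step in the embryo, was expressed in all 4 libraries, with 181, 107, 301 and 183 reads and log2 levels of 7.27, 6.63, 8.37 and 7.75. Both tumor libraries were above both tumor-free ones, and both exercised libraries were below the resting library of the same tumor status. The tumor effects were 1.096 at rest (0.83 to 1.37) and 1.12 with exercise (0.77 to 1.48). The exercise effects were -0.64 without tumor (-1.005 to -0.29) and -0.62 with tumor (-0.90 to -0.35). The counting intervals of neighbouring levels were all apart. Under library totals alone, which move the median of all filtered genes to -0.59 in the exercise effect with tumor, Rdh10 passed the 2-fold limit there, at -1.23.

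Rdh11, a dehydrogenase that can reduce retinal as well as oxidize retinol, was low, with 27, 53, 46 and 54 reads and log2 levels of 4.58, 5.64, 5.68 and 6.001. E(-)T(-) was the low library, and the other 3 had overlapping intervals. It differed by 1.06 in the exercise effect without tumor (0.39 to 1.81), just past the 2-fold limit, and by 1.11 in the tumor effect without exercise (0.42 to 1.88). The first came inside the limit under library totals, at 0.97, without hemoglobin and Rn45s, at 0.95, and with a pseudocount of 4, at 0.97. The exercise effect with tumor was 0.32 (-0.27 to 0.92) and the tumor effect with exercise 0.37 (-0.20 to 0.95), and with library totals as the only scaling their signs turned, to -0.28 and -0.04. Its neighbour and paralog Rdh12, 16620 bases away, had 13, 47, 24 and 226 reads.

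Aldh1a1, which oxidizes retinal and other aldehydes, was the most abundant of the 9 genes in 3 libraries. It had 18252, 15841, 3716 and 7747 reads, at log2 levels of 13.92, 13.83, 11.99 and 13.15, and ranked 40, 53, 348 and 122 from the top of the filtered genes. E(-)T(+) was lowest and E(+)T(+) lay between it and the tumor-free libraries. The tumor effect at rest was -1.93 (-1.98 to -1.88), the exercise effect with tumor 1.15 (1.097 to 1.21) and the tumor effect with exercise -0.68 (-0.72 to -0.64). Without tumor, the exercised library differed by -0.09 (-0.12 to -0.06), a difference larger than counting error but small beside the others. The exercise effect with tumor came inside the limit under library totals alone, at 0.55. The paralog Aldh1a7 had 1509, 1703, 353 and 964 reads, with differences of -1.73 in the tumor effect at rest and 1.54 in the exercise effect with tumor, the latter coming inside the limit, at 0.93, under library totals alone.

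Aldh1a2, the enzyme that makes most retinoic acid in the embryo, had 240, 289, 58 and 109 reads, at log2 levels of 7.68, 8.06, 6.01 and 7.01. Here, too, E(-)T(+) was lowest and E(+)T(+) lay between, and the highest library was E(+)T(-). The tumor effect was -1.67 at rest (-2.12 to -1.26) and -1.052 with exercise (-1.39 to -0.74). The exercise effect with tumor was 0.992 (0.53 to 1.49), just inside the 2-fold limit, and without tumor it was 0.38 (0.13 to 0.63). Aldh1a2 marks mesothelium among other cells. The 5 mesothelial markers did not move together: mesothelin (Msln) was higher in E(-)T(+) than in E(-)T(-) by 2.48, and Upk3b and Lrrn4 differed by -2.38 and -2.23. Their part in the Aldh1a2 values was not tested.

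Rarb, the receptor whose promoter carries the DR5 repeat shown above, had 124, 99, 42 and 53 reads, at log2 levels of 6.73, 6.52, 5.56 and 5.98. The tumor-free libraries were above the tumor libraries, but each level overlapped with the next within counting error. The tumor effect at rest was -1.18 (-1.74 to -0.68), past the limit, and with exercise it was -0.54 (-1.06 to -0.06). The exercise effects were -0.21 (-0.61 to 0.18) without tumor and 0.42 (-0.18 to 1.05) with tumor, the latter turning to -0.18 under library totals alone. Both intervals held 0. Top2b, which covers the last exon, differed by 0.04 in the tumor effect at rest, -0.61 in the tumor effect with exercise, 0.11 in the exercise effect without tumor and -0.55 in the exercise effect with tumor. Its value was thus close to that of Rarb in E(+)T(+) over E(+)T(-), and less close in the others. The part of Top2b reads in the Rarb values was not tested.

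**Figure D2:**
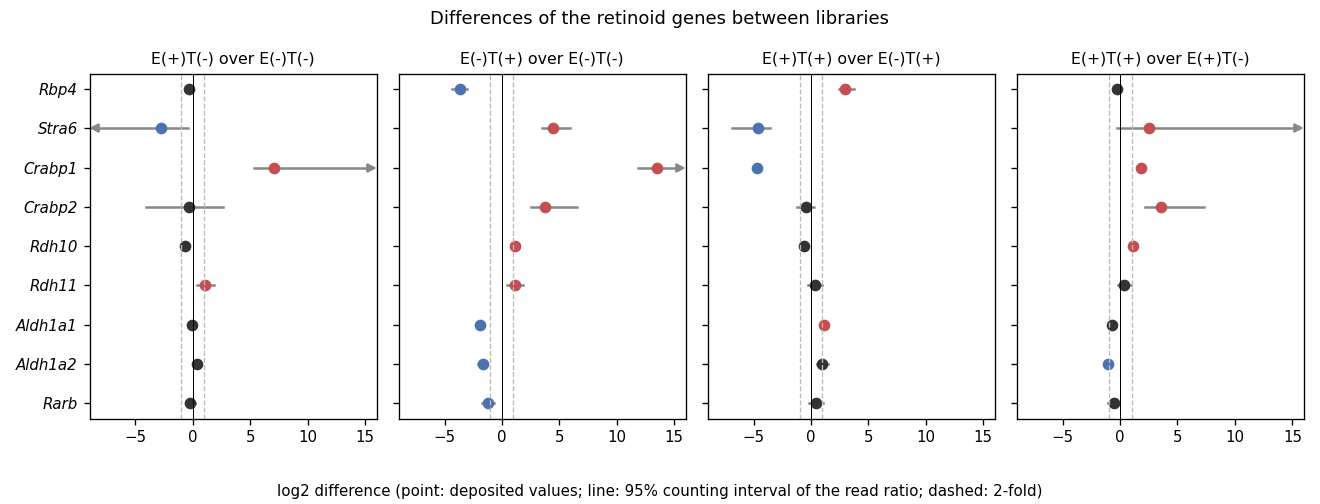
Log2 difference of the 9 genes in the 4 comparisons: points are differences of the deposited values (red, higher by 2-fold or more; blue, lower by 2-fold or more; black, inside), lines are 95% counting intervals of the read ratio, and arrows mark intervals without an end because a library had 0 reads. All 9 genes are past the limit in E(-)T(+) over E(-)T(-), and 3, 4 and 5 of them in the other comparisons.

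By comparison, the tumor effect without exercise put 5 of the 9 genes higher by 2-fold or more (Crabp1, Crabp2, Rdh10, Rdh11 and Stra6) and 4 lower (Rbp4, Aldh1a1, Aldh1a2 and Rarb). Among all 15164 genes past the filter, which asked for an average of 4 normalized counts over the libraries, 20.6% were higher and 25.7% lower by that much. The members were picked with this comparison in view, so nothing is read from the difference between these shares. For 6 of the 9 the whole counting interval was past the limit, and for Rdh10, Rdh11 and Rarb it reached inside. When hemoglobin and the ribosomal RNA row Rn45s were left out of the library totals, Rdh10 and Rdh11 came just inside, at 0.95 and 0.96. The median of the 9 was 1.096 and that of all filtered genes was -0.03. Here and elsewhere, setting the genes with 0 reads to their bound left the median of the 9 as it was.

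In the exercise effect with tumor, 2 genes were higher by 2-fold or more, Rbp4 and Aldh1a1, where 24.3% of all filtered genes were, and 2 were lower, Crabp1 and Stra6, where 17.7% were. All 4 had counting intervals wholly past the limit. The tumor effect without exercise shares the library E(-)T(+), so a value particular to that library enters both comparisons. There Rbp4 differed by -3.62, Aldh1a1 by -1.93, Stra6 by 4.41 and Crabp1, against 0 reads, by 13.49 on the deposited scale. The median of the 9 was 0.32, against 0.01 for all filtered genes. Under library totals alone the higher calls among all genes went from 3685 to 2482 and the lower from 2686 to 5370, Crabp2 joined Rdh10 past the limit on the lower side, at -1.07, and Aldh1a1 lost its call, at 0.55, which left 1 member higher and 4 lower.

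On the deposited scale, the tumor effect with exercise put 4 genes higher by 2-fold or more (Crabp1, Crabp2, Rdh10 and Stra6) and 1 lower (Aldh1a2), against 14.9% and 13.0% of all filtered genes. The call of Stra6 came from 4 and 0 reads and, as given above, its counting interval held 0. Stra6 was past the filter mostly through E(-)T(+), a library outside this comparison. The intervals of Crabp1 and Crabp2 alone were wholly past the limit. The median was 0.37 for the 9 genes and 0.00 for all filtered genes. Under library totals alone Rdh10 was inside the limit at 0.70, Aldh1a1 was past it at -1.097, and the calls among all genes went from 2259 higher and 1964 lower to 1440 and 3663. The difference of Aldh1a2, -1.052, was the nearest to the limit from outside.

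The exercise effect without tumor was the smallest of the 4, with Crabp1 and Rdh11 higher by 2-fold or more on the deposited scale and Stra6 lower, where 5.28% of all filtered genes were higher and 4.7% lower. Crabp1 and Stra6 each had a library at 0 reads here, and Stra6 was past the filter mostly through E(-)T(+). The call of Rdh11 was lost under the 3 settings named with its values. The interval of Crabp1 alone was wholly past the limit. The median of the 9 was -0.21, against 0.00. The median absolute difference of the 9 genes was 0.38 here, compared with 1.93 in the tumor effect at rest, 0.99 in the exercise effect with tumor and 1.052 in the tumor effect with exercise. Over all filtered genes the median absolute differences were 0.28, 0.90, 0.81 and 0.57 in the same order.

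**Figure D3:**
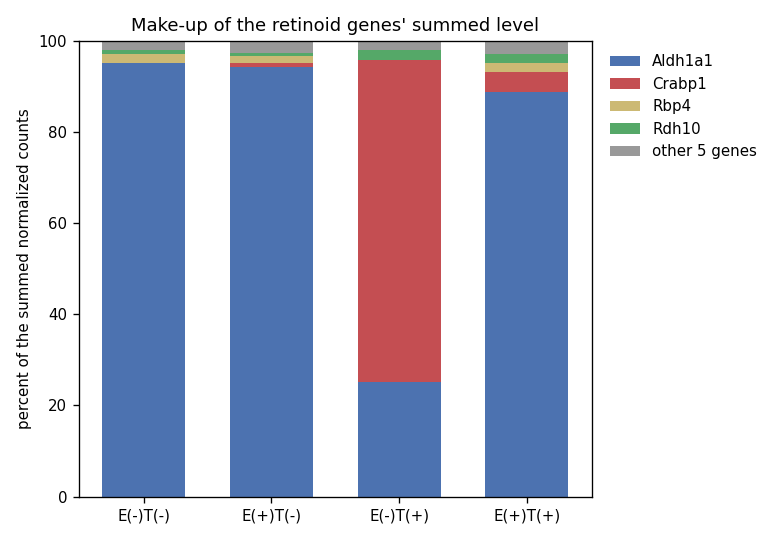
Share of each gene in the summed normalized counts of the 9 genes, in percent, for the 4 lung libraries (1 per group). Aldh1a1 makes up 94.99%, 94.3%, 25.05% and 88.7% of the sum, and Crabp1 70.6% of it in E(-)T(+).

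The sum of the 9 genes was alike in 3 libraries, at 16327, 15439 and 16258 normalized counts, and lower in E(+)T(+), at 10214. Its make-up was not. Aldh1a1 held 94.99%, 94.3%, 25.05% and 88.7% of the sum, so that E(-)T(+) was the low one. The share of Crabp1 was 0%, 0.838%, 70.6% and 4.38%. Rdh10 held 0.942%, 0.636%, 2.03% and 2.09%, and Rbp4 1.98%, 1.64%, 0.156% and 2.01%. Reads of Crabp1 outnumbered those of Aldh1a1 in E(-)T(+) alone.

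The shapes of the 9 profiles over the 4 libraries fell close together for some members. With each gene centred on its own mean log2 level, Aldh1a1 and Aldh1a2 were the nearest pair, at a distance of 0.36, and Rarb lay 0.69 from Aldh1a1 and 0.76 from Aldh1a2. Rdh10 and Rdh11 were 1.42 apart and Rbp4 1.46 from Aldh1a1. Crabp1 was far from every other member, 7.16 even from Crabp2. Among the 11216 genes that averaged 50 normalized counts or more, the 5 nearest to Crabp1 included Krt20 (1.96), Osr2 (2.15), Gzmf (2.36) and 3110039M20Rik (2.71), each of which had no read in E(-)T(-). The 5 nearest to Rbp4 were Art4, Evpl, Myct1, Pm20d2 and Atp8a1, at 0.16 to 0.21, and those nearest to Rdh10 were Galns, 2310022A10Rik, Nudt6, Hps1 and Nubp1, at 0.09 to 0.15. Aldh1a1 was nearest to Clec2d, Gpx7, Gna11, 4930556M19Rik and Lrrc6 (0.05 to 0.09), Aldh1a2 to Nrxn2, Synj2bp, Col4a3, Ggh and Dnajb2 (0.08 to 0.13), and Rarb to Tanc1, Camta2, Kbtbd3, Sdc3 and Ppt2 (0.04 to 0.07). With 4 libraries such distances describe likeness only.

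**Figure D4:**
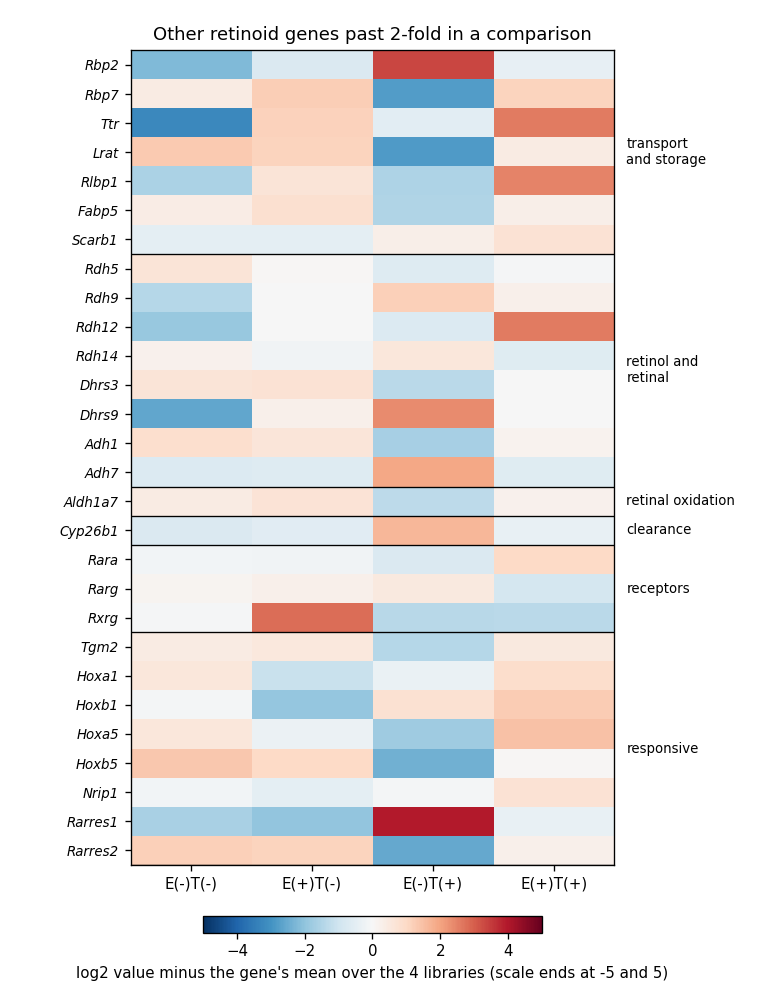
Log2 level of the 28 other retinoid genes that passed the filter and were past the 2-fold limit in at least 1 of the 4 comparisons, each minus its mean over the 4 lung libraries (color scale from -5 to 5), ordered by role. E(-)T(+) holds most of the darkest cells, red for Rarres1 and Rbp2 and blue for Lrat and Rbp7.

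The other genes of the pathway were taken from 6 lists of carriers, enzymes, receptors and responsive genes, with 55 symbols, of which 54 had a row and 37 passed the filter. In the tumor effect without exercise 8 of the 37 were higher and 12 lower by 2-fold or more, and in the exercise effect with tumor 15 were higher and 7 lower. In the tumor effect with exercise the counts were 10 and 2, and in the exercise effect without tumor 7 and 2. Their medians were 0.02, 0.57, -0.01 and 0.05 in the same order, and 0.05, 0.57, -0.01 and 0.06 with genes at 0 reads in a library set to their bound. Under library totals alone the counts of the exercise effect with tumor became 12 and 11, and those of the tumor effect with exercise 7 and 6, with medians of 0.01 and -0.42. The shares of all filtered genes given above apply to these counts as well.

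Of 9 genes for transport and storage past the filter, 2 were higher and 3 lower in the tumor effect without exercise, and 5 were higher and 1 lower in the exercise effect with tumor. Lrat, which esterifies retinol for storage, had 553, 438, 23 and 215 reads, a difference of -4.16 (-4.89 to -3.62) in the first comparison and 3.26 (2.69 to 4.01) in the second. Rbp7, a cellular retinol binding protein, had 117, 193, 9 and 140 reads, and Fabp5, which can carry retinoic acid, had 2106, 2628, 442 and 1455. Both were low in E(-)T(+), as Rbp4 and Aldh1a1 were. Rbp2, a cellular retinol binding protein of the gut, had 0, 2, 42 and 2 reads, high in the library in which Crabp1 and Stra6 were high. Scarb1, a lipoprotein receptor, was higher by 1.20 (1.07 to 1.33) in the tumor effect with exercise, and inside the limit at 0.79 under library totals alone.

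Of 11 enzymes that interconvert retinol and retinal, 4 were higher and 3 lower in the tumor effect without exercise. Adh1, with 1933, 1518, 265 and 893 reads, was lower by 2.50 (-2.69 to -2.31), and Dhrs3, which returns retinal to retinol, was lower by 1.99 (-2.15 to -1.83), from 1877 to 367 reads. Adh7 went the other way, with 102, 98, 497 and 80 reads and a difference of 2.64 (2.34 to 2.97). In the exercise effect with tumor Adh1 was higher by 1.84 (1.65 to 2.05) and Adh7 lower by 2.53 (-2.90 to -2.20). Rdh12 was higher in all 4 comparisons, by 1.89, 1.20, 3.27 and 2.58 in the order exercise without tumor, tumor at rest, exercise with tumor and tumor with exercise, whereas Rdh11 beside it was past the limit in the first 2 only. The difference between the genes was not tested.

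Clearance of retinoic acid was represented by Cyp26b1, since Cyp26a1 had 1 read over the 4 libraries and Cyp26c1 none. Cyp26b1 had 286, 299, 1172 and 270 reads, higher by 2.40 (2.21 to 2.59) in the tumor effect without exercise and lower by 2.02 (-2.22 to -1.83) in the exercise effect with tumor. In the other 2 comparisons it differed by 0.20 or less, with intervals that held 0, and the tumor effect with exercise turned from 0.20 to -0.21 under library totals alone. Its order of libraries was like that of Stra6 in having E(-)T(+) alone high.

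Among the receptors, both close relatives of Rarb were past the limit in both comparisons that involve E(+)T(+), in opposite directions. Rara had 292, 259, 150 and 467 reads and was higher by 1.73 (1.46 to 2.01) in E(+)T(+) than in E(-)T(+). Rarg had 625, 641, 634 and 226 reads and was lower by 1.39 (-1.62 to -1.17) in that comparison. Relative to E(+)T(-), the E(+)T(+) library differed by 1.20 for Rara (0.98 to 1.42) and by -1.15 for Rarg (-1.38 to -0.94), and under library totals alone Rara came inside the limit there, at 0.78. In the tumor effect without exercise Rara differed by -0.59 and Rarg by 0.39, both inside the limit, where Rarb was past it at -1.18. Rxra, the common partner, had 557, 498, 447 and 427 reads and differed by at most 0.125 in any comparison, although under library totals alone the exercise effect with tumor was -0.58.

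Of 13 genes known to respond to retinoic acid past the filter, Rarb not counted, 2 were higher and 6 lower in the tumor effect without exercise and 7 higher and 2 lower in the exercise effect with tumor. Rarres2, which encodes chemerin, had 7219, 6327, 415 and 2740 reads, and Tgm2 had 6694, 6650, 1463 and 5161. Hoxa5, with 2122, 1076, 324 and 2863 reads, and Hoxb5, with 660, 485, 37 and 197, were also lowest in E(-)T(+). Rarres1 was the opposite, with 22, 16, 859 and 39 reads, a difference of 5.59 (5.05 to 6.34) in the tumor effect without exercise and -4.33 (-4.87 to -3.90) in the exercise effect with tumor. Cyp26b1, also on this list, was the second gene of that kind. Lrat and Dhrs3 are among the genes that stand on this list as well as on another.

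**Figure D5:**
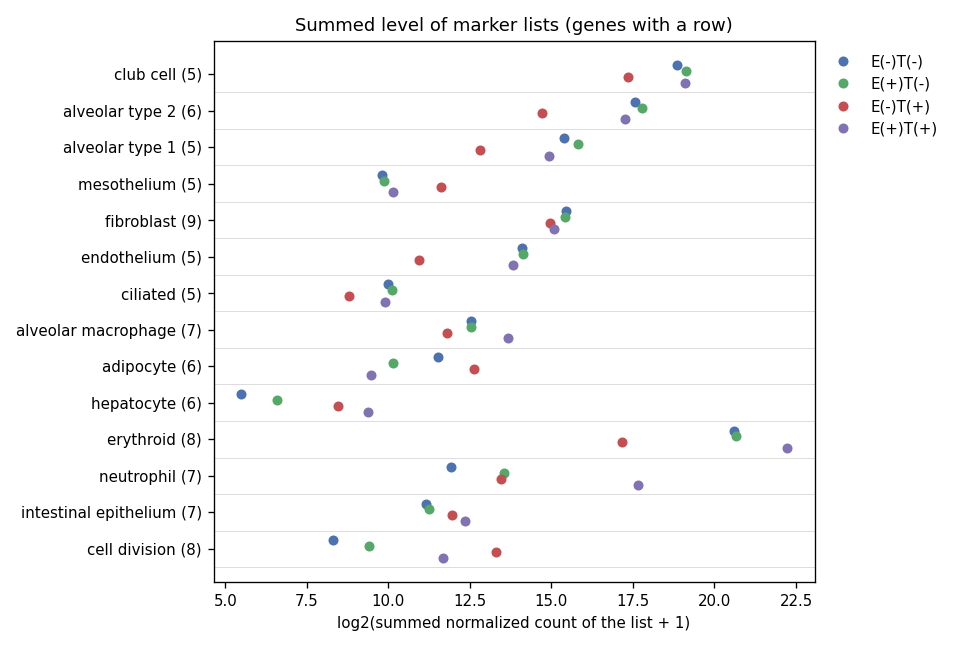
Summed normalized count of 14 marker lists, as log2(sum + 1), in the 4 lung libraries, with the number of genes with a row in brackets. In E(-)T(+) the alveolar, alveolar macrophage, club cell, fibroblast, endothelial, ciliated and erythroid sums are lowest. Of the 7 alveolar macrophage markers, 4 were lower and 1, Marco, was higher there by 2-fold or more than in E(-)T(-). The club cell and fibroblast lists were mixed as well. The cell division, mesothelial and adipocyte sums are highest there. The mesothelial sum is high through Msln, while 3 of the 5 mesothelial markers were below their E(-)T(-) level. The adipocyte sum is high through Fabp4, while the other adipocyte markers were below their E(-)T(-) level.

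Several lists of lung cell markers had their highest or lowest sum in E(-)T(+). In that library 20.6% of all filtered genes were higher and 25.7% lower by 2-fold or more than in E(-)T(-). The tissue label held: surfactant protein C (Sftpc) of alveolar type 2 cells had 137668, 153668, 11268 and 69686 reads. In the tumor effect without exercise all 6 alveolar type 2 markers, all 5 alveolar type 1 markers and all 5 endothelial markers were lower by 2-fold or more, with medians of -2.49, -2.75 and -3.29, and all 8 cell division markers were higher, their median being 5.10. With tumor, in the exercised library, the alveolar and endothelial markers were all higher by 2-fold or more, the medians being 2.59, 1.92 and 2.96, except that 1 of each alveolar list came inside the limit under library totals alone. There, 7 of the 8 cell division markers were lower. The summed level of the alveolar type 2 markers ranged from 26586 normalized counts in E(-)T(+) to 226470 in E(+)T(-), and that of the cell division markers from 316.1 in E(-)T(-) to 10092 in E(-)T(+).

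Rbp4, Aldh1a1, Aldh1a2 and Rarb were low where the alveolar and endothelial markers were low, and Crabp1, Crabp2, Stra6 and Rdh10 were highest where the cell division markers were highest. The likeness to cell division markers did not hold throughout. In the exercise effect without tumor 4 of the 8 were higher (median 1.04). There Crabp1 was higher, Rdh10 differed by -0.64, Crabp2 had 2 and 3 reads and Stra6 0 and 7. In the tumor effect with exercise 7 of the 8 were higher (2.12), as were Crabp1, Crabp2 and Rdh10, with Stra6 at 4 and 0 reads. Of the 4 lower genes, Aldh1a1, Aldh1a2 and Rarb differed by less than the medians of all 3 marker lists in the tumor effect without exercise, and Rbp4 by more. Neutrophil markers summed to 3859, 12027, 11191 and 207351 normalized counts, with all 7 higher by 2-fold or more in the tumor effect with exercise (median 4.24). Of the 7, 6 were higher in the exercise effect without tumor (1.77), 6 in E(-)T(+) over E(-)T(-) (2.68) and 6 in E(+)T(+) over E(-)T(+) (4.18), where Ltf was lower. E(+)T(+) was thus far above the other libraries. The 8 erythroid markers were all lower in E(-)T(+) than in E(-)T(-) (median -3.40), and all were higher in E(+)T(+) than in E(-)T(+) (5.14) or in E(+)T(-) (1.62). Club cells of the airway, which also express aldehyde dehydrogenases, gave a mixed picture in the tumor effect without exercise. There Scgb1a1 and Cyp2f2 differed by -1.87 and -3.71, and Scgb3a1 and Bpifa1 were higher by 2.51 and 4.15. Fibroblast markers were mixed in that comparison too, with 3 of 9 higher, Col1a1 among them at 1.37. The 4 lower ones included the lipofibroblast gene Tcf21, at -4.77. Of 6 intestinal epithelial markers past the filter, 2 were higher and 2 lower in E(-)T(+) than in E(-)T(-), and their median difference was -0.29. Krt20 had 0, 46, 2696 and 476 reads and Cdh17 had 0, 2, 17 and 5, whereas Epcam and Krt8 differed by -1.75 and -1.13, and the defining factor Cdx2 had no read in any library. The part of these cells in the values of the 9 genes was not tested.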

How the data were processed

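Lung RNA was sequenced in 4 libraries, 1 per group, from transcript 3′ ends (QuantSeq). The submitters' processing notes name Bowtie2, bedtools and mm10, and the study's methods name edgeR for quantile normalization; versions and annotation are not given in the sources used here. The deposited log2 values, made by the authors, are log2(normalized count + 1) at 3 decimals, so folds of low genes are understated. The quantile adjustment (fitted dispersion 0.3722) was inverted to whole reads, which matched 100% of the values within 0.001. The inversion and intervals were also run on reads simulated with counting error alone and passed through the same model. Such a run can check the calculation, but not the model or the spread between animals.

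Comparisons were differences of deposited values, with a 2-fold limit and a filter on a normalized count of at least 4, taken here as the mean over the 4 libraries; the study names both limits but not how the count was applied. There are no replicates, and no test was made. The floor was 3 reads. Alternatives were other library scalings, pseudocounts of 4 and 0.25, filters of none and 50, linear scaling of reads and a 3-fold limit. Scalings of the wider list and of single listed genes were added after seeing the data.

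The members and lists were chosen with earlier results of these data known. Named genes were all members, up to 3 genes per wider list and comparison with the largest difference at a mean of at least 50, and the 5 nearest genes in profile to each member at that level (6 of 9). Rbp2, Rxra, Tgm2, Rarres2, Cyp26a1 and Cyp26c1, and the marker genes given by name, were picked after their values were seen. Some genes that this rule names are not reported here. In the files, 79 rows share a symbol with another row, and none of them is a member. Python 3.11.15, numpy 2.4.6, scipy 1.17.1, pandas 2.3.3 and matplotlib 3.10.9 were used. Positions came from GENCODE M21 and promoters from RefSeq.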

Additional observations from a re-analysis of the deposited data

Results flagged for a closer look

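Crabp1 differed in opposite directions in the exercise comparisons. The log2 difference of E(+)T(-) over E(-)T(-) was 7.027, from 141 and 0 reads, and that of E(+)T(+) over E(-)T(+) was -4.68, from 382 and 10477 reads. The first value stands against a library at 0 reads and is set in part by the pseudocount, being 5.06 with 4 and 9.02 with 0.25; the counting interval of the log2 read ratio started at 5.35. As stated above, RNA of another library cannot be told apart from expression for those 141 reads. Each group is 1 library, and the difference between the comparisons was not tested.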

How the results depend on the processing

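The number of members past the limit was 3 in the exercise effect without tumor, 9 in the tumor effect without exercise, 4 in the exercise effect with tumor and 5 in the tumor effect with exercise. Among genes that averaged 50 normalized counts or more, where 6 members remain, it was 1 in the first and 3 in the last, since fewer genes were counted, and at a 3-fold limit it was 3 in the last. The other counts stayed within 1.5 times the values given. Of 216 log2 differences of single members under other scalings, pseudocounts and linear reads, 202 kept their direction and side of the limit, 7 came inside it, 4 went past it and 3 changed sign inside it. Most of those 14 belonged to library totals alone, under which the median of all genes shifted to -0.59 (exercise with tumor) and -0.41 (tumor with exercise). Rdh11 without tumor was inside the limit at 0.97 under library totals, 0.95 without hemoglobin and Rn45s, and 0.97 with a pseudocount of 4, and Aldh1a2 reached 1.0 in the exercise effect with tumor with a pseudocount of 0.25. No paired analysis was possible because each group has 1 library. Depth limits Stra6 and Crabp2 most, with 0 to 7 reads in 3 and 2 libraries.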
